A study of Mus musculus with 6 samples.

Results

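The 38 genes described here encode the machinery that copies DNA in S phase and the enzymes that supply its building blocks. They were listed by gene symbol with no filter on a measured value, but earlier results of these data were known at the time. The genes fall into 6 steps. Origin licensing holds 11 genes, helicase activation 6, the DNA polymerases and primase 6, and the sliding clamp and its loader 6. Strand binding and Okazaki fragment joining hold 4, and nucleotide supply holds 5. All 38 symbols matched an Ensembl identifier among the 46078 genes of the count tables, and all 38 passed the filter on low counts. RNA sequencing of total RNA compared 3 mouse libraries labelled juvenile myelomonocytic leukemia (JMML) with 3 labelled wild type (WT). The JMML libraries carry only that disease name as their genotype, and the labels give neither the altered genes nor the tissue, strain, age or treatment of either group. The title of the series speaks of sustained fetal hematopoiesis and a dual-age-specific mouse model, and JMML is a childhood disease of excess myelomonocytic cells. The labels do not say that replicates came from separate animals, so every p-value measures only the spread between these libraries, part of which may be technical.

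Each library held 47096464 to 61656272 counts in WT and 91976512 to 108395459 in JMML, so the JMML libraries were the deeper ones. The smallest count of any of the 38 genes in any library was 984. Sample identifiers end in the letter F for JMML 1 and JMML 2 and in M for the other 4 libraries. The labels do not explain the letters. Xist, the RNA that coats the inactive X chromosome, had 54449 and 49961 counts in the F libraries and 4 to 36 in the others. The 4 Y-linked genes read had 0 counts in the F libraries and 1777 to 5529 in the M libraries. By these counts the F libraries are of female type and the M libraries of male type. No WT library carries an F, so the letter, and with it sex, is partly confounded with the group. Results are also given with the letter in the fit and within the letter M. The identifiers of JMML 3 and WT 3 begin with a common code, which the labels leave unexplained.

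Replication starts from origins that are licensed in G1, when the origin recognition complex, Cdc6 and Cdt1 load the Mcm2 to Mcm7 ring onto DNA. In S phase Cdc45 and the GINS complex join that ring to form the active helicase. Polymerase alpha and primase lay down primers, and polymerases delta and epsilon, tethered to DNA by the PCNA clamp, extend them. Many of these genes are switched on together at the entry into S phase by E2F transcription factors, which the retinoblastoma protein holds back. In blood-forming tissue their transcripts are abundant in dividing progenitors and low in mature granulocytes.

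The replication genes differed little between JMML and WT. By the quasi-likelihood test of edgeR, with p-values adjusted after Benjamini and Hochberg over 18097 tested genes and a threshold of 0.05, Orc1, Cdc6 and Pole fell in JMML and no replication gene rose. The 3 that fell are 7.89% of the 38, beside 13.8% of all tested genes called lower. The 0 that rose stand beside 12.4% of all tested genes called higher. At an unadjusted p under 0.05 edgeR placed 5 of the 38 lower and 1 higher. The DESeq2 Wald test called the same numbers, 3 lower and 0 higher, with 4 and 1 at an unadjusted p under 0.05. limma-voom called 3 lower and 0 higher, with 6 and 1 unadjusted.

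The median log2 fold change (JMML minus WT) over the 38 genes was −0.13, with a range of −0.71 for Cdc6 to 0.33 for Cdc45. Over all tested genes the median was −0.024. The median size of the difference without its sign was 0.17 for the 38 and 0.45 for all tested genes, on the log2 scale. Tested genes include some with far fewer counts than the 38, whose smallest was 984, and no set of like level was compared. The median standard error was 0.15, against 0.23 over all tested genes, so the 38 were measured with more precision than a typical gene. The 95% interval of the difference lay within 2-fold in either direction for 36 of the 38, against 47.8% of all tested genes. Orc1 and Cdc6 were the exceptions, and 32 of the 38 intervals covered 0.

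**Figure D1:**
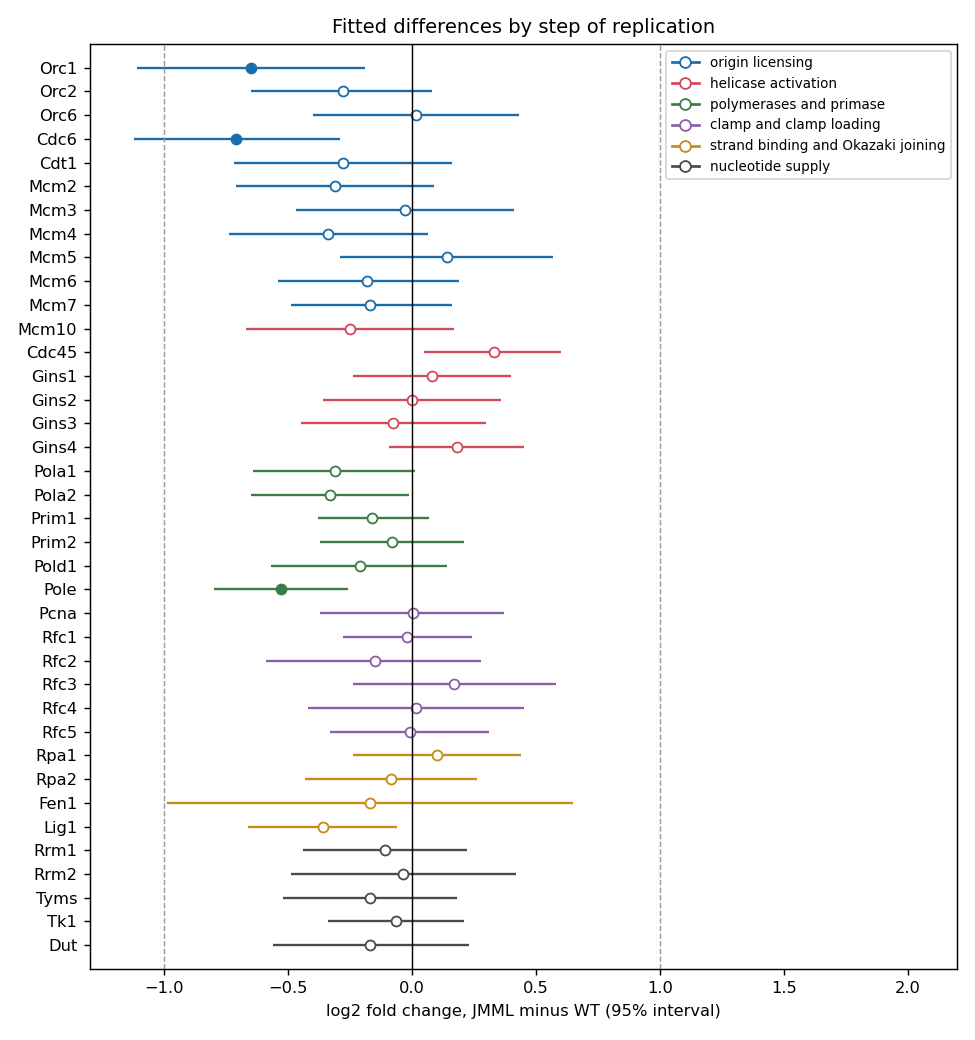
Fitted log2 fold change (JMML minus WT, horizontal axis) of the 38 replication genes, ordered and coloured by step; bars are 95% intervals from edgeR, filled points passed the adjusted p threshold of 0.05, and dashed lines mark a 2-fold difference. The 3 filled points, Orc1, Cdc6 and Pole, lie at −0.65, −0.71 and −0.53, and the bar of Fen1 is the widest.

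In 7 of the 38 genes all 3 JMML libraries lay below all 3 WT libraries, which was so for 24.6% of all tested genes. Those 7 were Orc1, Cdc6, Pola1, Pola2, Prim1, Pole and Lig1. Cdc45 alone among the 38 had all 3 JMML libraries above all 3 WT libraries, against 22.9% of all tested genes. In the other 30 genes the groups overlapped.

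Summed over the 38 genes, normalized counts (CPM, counts scaled to a common library size with TMM factors) were 5373, 5049 and 6566 in JMML 1 to 3. They were 6979.5, 5729 and 5952 in WT 1 to 3. The groups overlapped, with JMML 3 above WT 2 and WT 3. The means were 5663 ± 799 in JMML and 6220.5 ± 667 in WT (SD, n = 3). In these bulk libraries, fewer cells in S phase and less RNA of these genes per cell cannot be told apart.

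Libraries also differed in marker genes of blood cell types. Of the B cell list 12 of 12 genes were called lower in JMML (summed CPM 14.2 to 24.0 against 160.3 to 642 in WT), and of the megakaryocyte list 10 of 10 (18.9 to 39.6 against 322 to 1019). Erythroid markers were lower in 8 of 12 (394 to 1591 against 2206 to 2894), T cell markers in 9 of 9 (13.2 to 21.7 against 44.2 to 65.2), and stem cell markers in 6 of 8 with 1 higher (183 to 209 against 241 to 318). Monocyte markers were higher in 6 of 8 (2926 to 3774 against 1458 to 1608) and neutrophil granule genes in 5 of 10 (20594 to 29845 against 11962 to 20375). Of 6 hepatocyte genes 3 passed the filter and 0 were called by edgeR, also at an unadjusted p under 0.05 (29.2 to 92.2 against 88.2 to 96.5). Vpreb3 of the B cell list, Gp6 of the megakaryocyte list and the hepatocyte genes Alb, Ttr, Apoa1 and Serpina1a were at 0 counts in at least 1 library. The part of these cell types in the replication results was not tested.

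Some of the promoters hold letters that E2F factors are known to favour. The letters TTTCCCGC, TTTGGCGC, TTTCGCGC and TTTGCCGC were searched on both strands in RefSeq promoters of build GRCm38.p6, each 300 bases long with 250 before and 50 after the start. The table held 36 promoters of 31 of the 38 genes. A match stood in 12 of the 36 (33.3%), against 744 of 32851 promoters in the whole table (2.26%). CCAAT, the letters bound by NF-Y, stood on either strand in 22 of the 36 (61.1%), against 37.4% of all promoters. The motifs were chosen with the expression values known, and a match describes letters, not a bound site. The genes with an E2F-type match were Orc1, Cdc6, Cdt1, Mcm3, Mcm5, Mcm6, Mcm7, Gins3, Pola1, Pold1, Rfc3 and Lig1. Shown are the 170 bases before the start of Orc1 and Cdc6, which were called lower in JMML. Those of Mcm5, Mcm6 and Pola1, which did not pass the test, are shown too. Whether the called and uncalled genes differ from each other was not tested. Sequences run 5′ to 3′ on the gene's strand, and capitals mark E2F-type letters on either strand. Where matches overlap, as at the longer run in Mcm5 and in Mcm6, the capitals cover both.
Orc1: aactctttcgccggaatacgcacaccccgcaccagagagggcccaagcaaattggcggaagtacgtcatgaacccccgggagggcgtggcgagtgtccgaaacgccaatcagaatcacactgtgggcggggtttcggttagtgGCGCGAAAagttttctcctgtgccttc
Cdc6: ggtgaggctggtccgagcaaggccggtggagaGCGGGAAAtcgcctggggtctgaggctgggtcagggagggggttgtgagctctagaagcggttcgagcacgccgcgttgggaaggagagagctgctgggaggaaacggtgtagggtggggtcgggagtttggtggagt
Mcm5: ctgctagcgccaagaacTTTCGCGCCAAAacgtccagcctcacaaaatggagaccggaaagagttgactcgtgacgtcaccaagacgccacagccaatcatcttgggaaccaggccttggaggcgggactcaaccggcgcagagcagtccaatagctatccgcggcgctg
Mcm6: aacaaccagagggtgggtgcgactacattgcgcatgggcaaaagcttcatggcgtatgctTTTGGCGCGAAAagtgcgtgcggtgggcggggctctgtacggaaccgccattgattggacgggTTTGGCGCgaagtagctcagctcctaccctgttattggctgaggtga
Pola1: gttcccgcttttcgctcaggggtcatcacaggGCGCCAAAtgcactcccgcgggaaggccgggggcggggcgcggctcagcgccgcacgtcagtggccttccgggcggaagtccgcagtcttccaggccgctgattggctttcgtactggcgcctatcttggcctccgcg
The windows lie at chr4:108579284-108579453 (plus strand) for Orc1, chr11:98907981-98908150 (plus strand) for Cdc6 and chr8:75109339-75109508 (plus strand) for Mcm5. The others lie at chr1:128359706-128359875 (minus strand) for Mcm6 and chrX:93632156-93632325 (minus strand) for Pola1. In GENCODE vM21 the Cdc6 window lies in the first intron of transcripts that start further upstream, the last bases of the Orc1 window fall in the first exon of noncoding Orc1 transcripts, and the other 3 lie before the gene.
The match began 27 bases before the start in Orc1 and 138 in both Cdc6 and Pola1. Among the 12 genes with a match, Orc1 and Cdc6 were called lower by edgeR, beside 13.8% of all tested genes. A link between a match and a call was not tested. Pole, the third gene called lower, was not among the 31 genes in the table.

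Licensing, the largest step with 11 genes, held 2 of the 3 calls (18.2% of the step, beside 13.8% of all tested genes). Cdc6, the ATPase that works with the origin recognition complex to load the Mcm ring (chr11:98907801-98923940), measured 72.6, 63.1 and 94.1 CPM in JMML 1 to 3 and 147, 117 and 112 CPM in WT 1 to 3. Every JMML library lay below every WT library. The log2 fold change was −0.71 ± 0.18 (SE), with an adjusted p of 0.026 by edgeR's quasi-likelihood test and a level 0.612 times that of WT. Orc1, the largest subunit of the origin recognition complex (chr4:108579423-108614833), measured 23.0, 18.4 and 28.1 CPM in JMML and 43.6, 31.7 and 33.7 CPM in WT. The groups did not overlap here either. The log2 fold change of Orc1 was −0.65 ± 0.20, with an edgeR adjusted p of 0.0481, close to the threshold.

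Both licensing calls were lost on leaving out most single libraries. Over all genes the calls also fell, from 4737 to between 2203 and 4003, when 1 library was left out. With single libraries left out, Orc1 kept its call without JMML 3 (edgeR adjusted p = 0.0372) and lost it without JMML 1 (0.105), JMML 2 (0.133), WT 1 (0.17), WT 2 (0.0852) or WT 3 (0.105), in a range of 0.0164 to 0.389 over all settings tried. Cdc6 likewise kept its call without JMML 3 (edgeR adjusted p = 0.0168) and lost it without JMML 1 (0.0684), JMML 2 (0.0783), WT 1 (0.0963), WT 2 (0.0715) or WT 3 (0.0528), in a range of 0.00409 to 0.271 over all settings. Both log2 fold changes were below 0 in every setting tried, from −0.83 to −0.33 for Orc1 and from −0.89 to −0.38 for Cdc6.

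The other members of the origin recognition complex did not pass the test. Orc2 measured 92.1 ± 13.8 CPM in JMML and 112 ± 16.4 CPM in WT (SD, n = 3), a log2 difference of −0.28 ± 0.16 (SE). Orc6, the smallest subunit, stood at 53.8 ± 11.3 and 53.2 ± 6.13 CPM, a log2 difference of 0.014 with a 95% interval of −0.40 to 0.43. Cdt1, the partner of Cdc6 in loading, measured 83.6, 107 and 109.8 CPM in JMML and 155, 109 and 102 CPM in WT. WT 1 alone stood above the rest, and the log2 difference of −0.28 ± 0.19 did not pass.

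None of the 6 genes of the Mcm2 to Mcm7 ring passed the threshold, and edgeR, DESeq2 and limma-voom placed none of the 6 under an unadjusted p of 0.05. Their summed CPM was 1803, 1837 and 2356 in JMML and 2561, 1938 and 2078 in WT. The groups overlapped, as JMML 3 stood above WT 2 and WT 3. Mcm4 had the lowest log2 difference of the ring, −0.34 ± 0.17, and measured 204, 223 and 294 CPM in JMML against 351, 279 and 281 CPM in WT. Mcm2 measured 246, 242 and 320.0 CPM in JMML against 396, 286 and 319.7 CPM in WT, a log2 difference of −0.31 ± 0.17. In both genes only JMML 3 reached into the WT range.

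The remaining ring genes lay closer to 0. Mcm6 measured 399, 425 and 532 CPM in JMML against 580.3, 476 and 475 CPM in WT, a log2 difference of −0.18 ± 0.16. Mcm7 gave −0.17 ± 0.14 and Mcm3 −0.03 ± 0.19 on the log2 scale. Mcm5 was the ring gene with the JMML mean on the higher side, at 392, 375 and 491 CPM against 458, 304 and 378 CPM, and its log2 difference of 0.14 had an interval of −0.29 to 0.57. Ring subunits assemble in equal numbers, but whether their transcripts stood at equal levels was not tested. Levels per kilobase use the union of all annotated exons, 6956 bases for Mcm2 and 4666 for Mcm6, not the length of the expressed transcript. By CPM alone, Mcm2 (334 in WT) stood above Mcm3 (288 in WT). Per kilobase of exon, WT levels ran from 48.0 CPM per kb for Mcm2 to 109 CPM per kb for Mcm6, and JMML levels from 38.7 for Mcm2 to 105 for Mcm5.

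**Figure D2:**
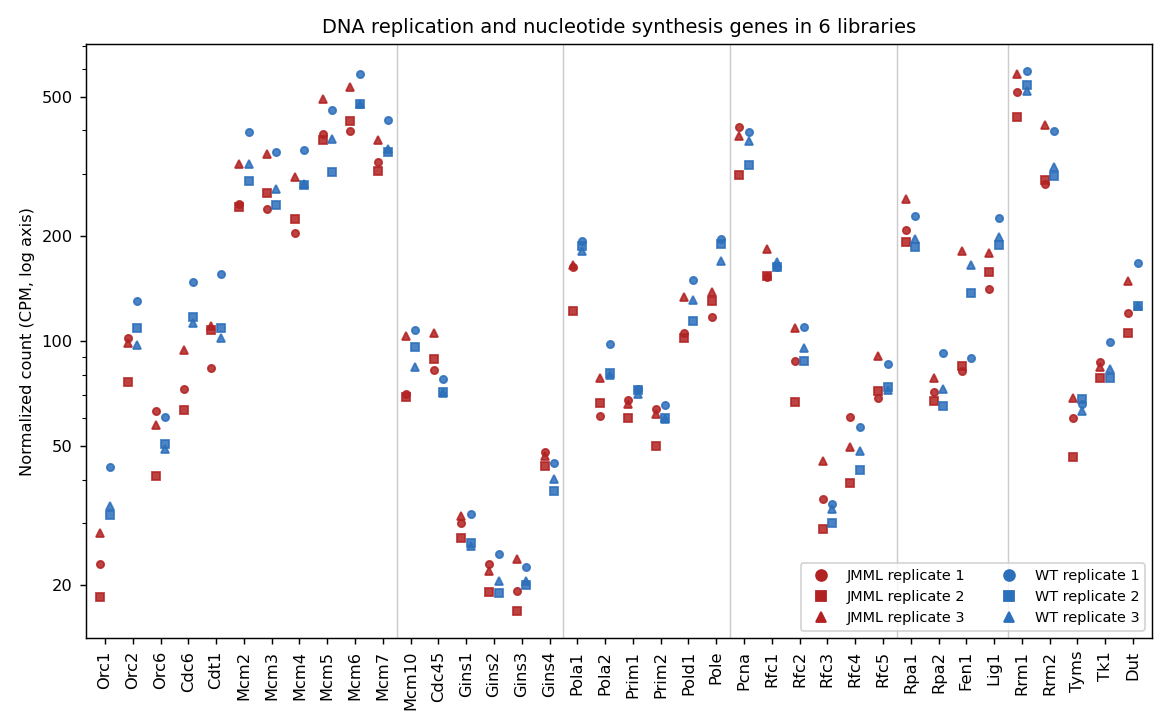
Normalized counts (CPM, log axis) of the 38 replication genes in each of 6 libraries; red marks are JMML, blue marks WT, the mark's shape gives the replicate number, and grey lines part the 6 steps. The red marks of Orc1, Cdc6 and Pole lie wholly below the blue ones, those of Cdc45 wholly above, and WT 1 (blue circle) is the highest WT mark in 35 of 38 genes.

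Helicase activation was the step with the highest median, 0.041 on the log2 scale, and it held no gene called by edgeR, DESeq2 or limma-voom. Cdc45, which bridges the Mcm ring and GINS in the moving helicase, measured 82.5, 88.4 and 105 CPM in JMML and 77.9, 71.1 and 70.9 CPM in WT. All JMML libraries lay above all WT libraries. Its log2 fold change was 0.33 ± 0.12, with an unadjusted p of 0.0271 and an adjusted p of 0.0807 by edgeR's quasi-likelihood test, so it did not pass. It was the 1 gene of this step at an unadjusted p under 0.05 by edgeR, and DESeq2 and limma-voom also each placed 1 there.

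The 4 GINS genes, whose products form 1 complex, stood near 0. Gins1 gave a log2 difference of 0.081 ± 0.14, Gins2 0.00068 ± 0.15, Gins3 −0.075 ± 0.16 and Gins4 0.18 ± 0.12. Gins4 measured 46.1 ± 2.22 CPM in JMML and 40.7 ± 3.79 CPM in WT. Gins2 was the lowest of all 38 genes per length, at 5.20 CPM per kb in each group. Its value is uncertain, because 67.3% of its exon bases lie opposite exons of Gse1, and whether counting used the strand is not given in the sources used here. Mcm10, which helps switch the loaded helicase on, measured 70.2, 68.8 and 103 CPM in JMML and 107, 95.7 and 84.0 CPM in WT, and its log2 difference of −0.25 ± 0.18 did not pass.

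All 6 polymerase and primase genes had a log2 difference below 0, with a median of −0.26. Of them 1 was called lower by edgeR (16.7%, beside 13.8% of all tested genes). Pole, the catalytic subunit of the leading-strand polymerase epsilon (chr5:110286306-110337474), measured 117, 129.6 and 138 CPM in JMML and 196, 189.7 and 169 CPM in WT. The groups did not overlap. Its log2 fold change was −0.53 ± 0.11, with an adjusted p of 0.0163 by edgeR's quasi-likelihood test and a level 0.692 times that of WT. The call was lost without JMML 2 (edgeR adjusted p = 0.051), WT 1 (0.0736) or WT 2 (0.0676), in a range of 0.00201 to 0.183 over all settings. Pole has the longest exon sequence of the 38, 11160 bases, and with a trend of fold change on gene length removed its log2 fold change was −0.29 with an edgeR adjusted p of 0.133.

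The polymerase alpha and primase complex makes the RNA-DNA primers. Pola2 measured 60.8, 66.2 and 78.0 CPM in JMML and 97.6, 80.7 and 79.5 CPM in WT, and its log2 difference of −0.33 ± 0.14 had an edgeR adjusted p of 0.11. Pola1, the catalytic subunit, measured 163, 122 and 165 CPM in JMML and 193, 187 and 180.2 CPM in WT, with a difference of −0.31 ± 0.14 and an edgeR adjusted p of 0.135. Prim1, the small primase subunit, measured 67.6, 59.9 and 65.8 CPM in JMML and 72.8, 72.3 and 70.5 CPM in WT, with a difference of −0.16 ± 0.10. In all 3 genes the groups did not overlap, yet none passed. Prim2, the large primase subunit, gave a log2 difference of −0.081 ± 0.13. Pold1, the catalytic subunit of the lagging-strand polymerase delta, gave −0.21 ± 0.15. Within the letter M, where JMML 3 is the lone JMML library, the values of Prim2 and Pold1 were 0.035 and 0.055. Both are smaller than the SEs above, so no direction can be read for these genes there.

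The clamp and its loader had a median log2 difference of −0.0031, and none of the 6 genes was called by edgeR, DESeq2 or limma-voom, nor lay under an unadjusted p of 0.05 in any of the 3. Pcna, the ring that tethers polymerases to DNA, measured 409, 298 and 386 CPM in JMML and 397, 319 and 374 CPM in WT. The libraries interleaved, and the log2 difference was 0.0023 with a 95% interval of −0.37 to 0.37. Pcna was the highest of the 38 genes per length, at 152 CPM per kb in JMML and 151 in WT. A processed copy, Pcna-ps2, held 2076 to 4078 counts per library beside the 16656 to 35051 of Pcna, so reads that both sequences share make the Pcna level uncertain.

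Rfc1, the large subunit of the clamp loader, measured 163 ± 17.4 CPM in JMML and 165 ± 3.20 CPM in WT, with an interval of the log2 difference of −0.28 to 0.24. The small subunits gave log2 differences of −0.15 ± 0.18 for Rfc2, 0.17 ± 0.18 for Rfc3, 0.014 ± 0.19 for Rfc4 and −0.0086 ± 0.14 for Rfc5. Rfc3 measured 35.1, 28.8 and 45.2 CPM in JMML and 34.0, 30.1 and 33.0 CPM in WT, so JMML alone held both its highest and its lowest values. Exons of Rfc2, Rfc4 and Rfc5 overlap another gene on the opposite strand over 10.7% to 15.1% of their length, as do those of Orc1 (10.8%) and Orc2 (29.8%).

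Among the genes that coat single strands and join Okazaki fragments, Lig1 stood lowest. Lig1, the ligase that seals the fragments, measured 141, 157 and 178 CPM in JMML and 224, 188 and 198 CPM in WT. Its groups did not overlap, and its log2 difference of −0.36 ± 0.13 had an unadjusted p of 0.0247 and an edgeR adjusted p of 0.0758. It was the 1 gene of this step at an unadjusted p under 0.05, by edgeR, by DESeq2 and by limma-voom, and no gene of the step was called by any of the 3. Rpa1 and Rpa2, subunits of the single-strand binding protein, gave log2 differences of 0.10 ± 0.14 and −0.085 ± 0.15.

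Fen1, the flap nuclease that trims fragment ends, had the largest standard error of the 38 genes. It measured 81.7, 84.4 and 181 CPM in JMML and 89.4, 137 and 165 CPM in WT. The highest library of each group was replicate 3, and those are the libraries whose identifiers share a code. Over the 38 genes WT 3 was the highest WT library in 2, and JMML 3 the highest JMML library in 29. Whether the code bears on the Fen1 values was not tested. The log2 difference was −0.17 ± 0.35, with an interval of −0.99 to 0.65. An antisense gene, Gm10143, lies opposite 78.8% of the Fen1 exon bases and held 2 to 16 counts per library, against 5815 to 16434 for Fen1.

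The 5 nucleotide supply genes all had log2 differences below 0, with a median of −0.11, and none passed by edgeR, DESeq2 or limma-voom, nor lay under an unadjusted p of 0.05 in any of them. Rrm1, the large subunit of ribonucleotide reductase, which makes deoxynucleotides, measured 514, 437 and 581 CPM in JMML and 592, 541 and 519 CPM in WT. Rrm2, its small subunit and the one made in S phase, measured 281, 289 and 415 CPM in JMML and 399, 296 and 314 CPM in WT. The groups overlapped in both genes, and the log2 differences were −0.11 ± 0.14 and −0.035 ± 0.19. Per kilobase of union exon, Rrm2 (118 CPM per kb in JMML, 121 in WT) stood above Rrm1 (46.4 and 50). That order rests on union lengths of 2771 bases for Rrm2 and 11012 for Rrm1, and by CPM Rrm1 stood higher.

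Thymidylate production showed the same overlap. Tyms, which makes thymidylate anew, measured 58.3 ± 11 CPM in JMML and 65.6 ± 2.66 CPM in WT, a log2 difference of −0.17 ± 0.15. Tk1, which salvages thymidine, measured 83.0 ± 4.22 and 86.8 ± 10.9 CPM, a difference of −0.064 ± 0.12. Dut, which removes dUTP so that uracil is not built into DNA, measured 125 ± 22.0 and 139.8 ± 23.4 CPM, a difference of −0.17 ± 0.17. Within the letter M the differences of Rrm1 (0.11), Rrm2 (0.34), Tyms (0.10) and Dut (0.12) lay above 0. JMML 3 is the lone JMML library there, so these values cannot be set against a spread between JMML libraries.

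Across libraries, the replication genes tended to share an order. JMML 3 was the highest JMML library in 29 of the 38 genes (76.3%), against 38.7% of the 8029 tested genes whose mean log2 CPM was at least 4. JMML 2 was the lowest in 26 (68.4%) and the highest in 0, against 31.9% and 29.9% of those 8029 genes. WT 1 was the highest WT library in 35 of the 38 (92.1%), against 43.2% of those 8029 genes. The 38 values of a library share its depth and its scaling, so they are not independent.

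Set against the WT range, JMML 1 lay below all WT libraries in 24 of the 38 genes and above them in 6. JMML 2 lay below in 28 and above in 1. JMML 3 lay below in 7, within the range in 20 and above it in 11. In these 38 genes the F libraries JMML 1 and JMML 2 were thus the low ones, and the M library JMML 3 lay mostly within or above the WT range. The same counts were not made over all tested genes, so whether this order is particular to the 38 is not known. As a share of all counts, before scaling, the 38 genes took 0.479%, 0.49% and 0.626% in JMML and 0.736%, 0.635% and 0.616% in WT, where JMML 3 also lay above WT 3.

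**Figure D3:**
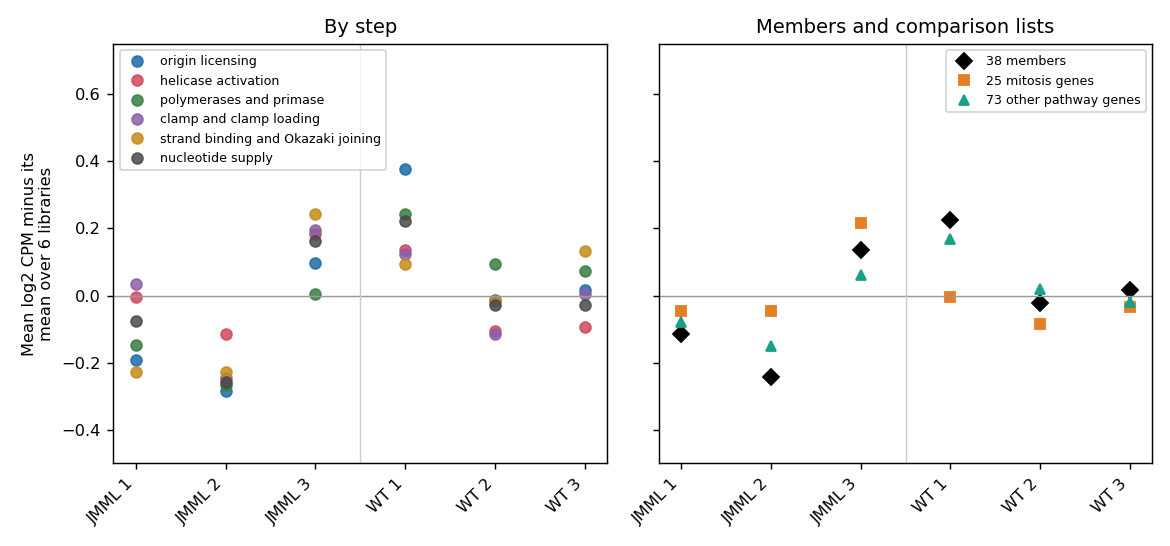
Mean log2 CPM of each list in each library minus its mean over the 6 libraries (vertical axis), for the 6 steps at left and, at right, for the 38 replication genes (black), 25 mitosis genes (orange) and 73 other genes of the pathway (green). The black marks of JMML 1 and JMML 2 lie below 0, those of JMML 3 and WT 1 above.

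The median of the 38 genes moved with the library left out. Without JMML 2 it was −0.00038 and no gene was called lower by edgeR. Without WT 1 it was 0.003, also with 0 called lower, and without WT 2 it was −0.14 with 0 called lower. Without JMML 3 it was −0.21 with 3 called lower. Without JMML 1 or WT 3 it was −0.11 and −0.10, with 1 called lower in each case.

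When the identifier letter entered the fit as a covariate, the median was 0.06, and within the letter M, where JMML 3 is the lone JMML library and is assumed to vary like the WT libraries, it was 0.10. In both fits edgeR called 0 of the 38 in either direction. Orc1, Cdc6 and Pole stayed below 0 within the letter M, at −0.33, −0.38 and −0.39 on the log2 scale. Scaling by library totals alone moved the median of all genes by −0.18 and that of the 38 genes to −0.32, and edgeR then called 7 of the 38 lower. Over all genes that scaling gave 1280 higher and 3460 lower, against 2245 and 2492 as reported. Those were the 3 above with Lig1 (−0.54), Pola1 (−0.50), Pola2 (−0.51) and Prim1 (−0.35).

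**Figure D4:**
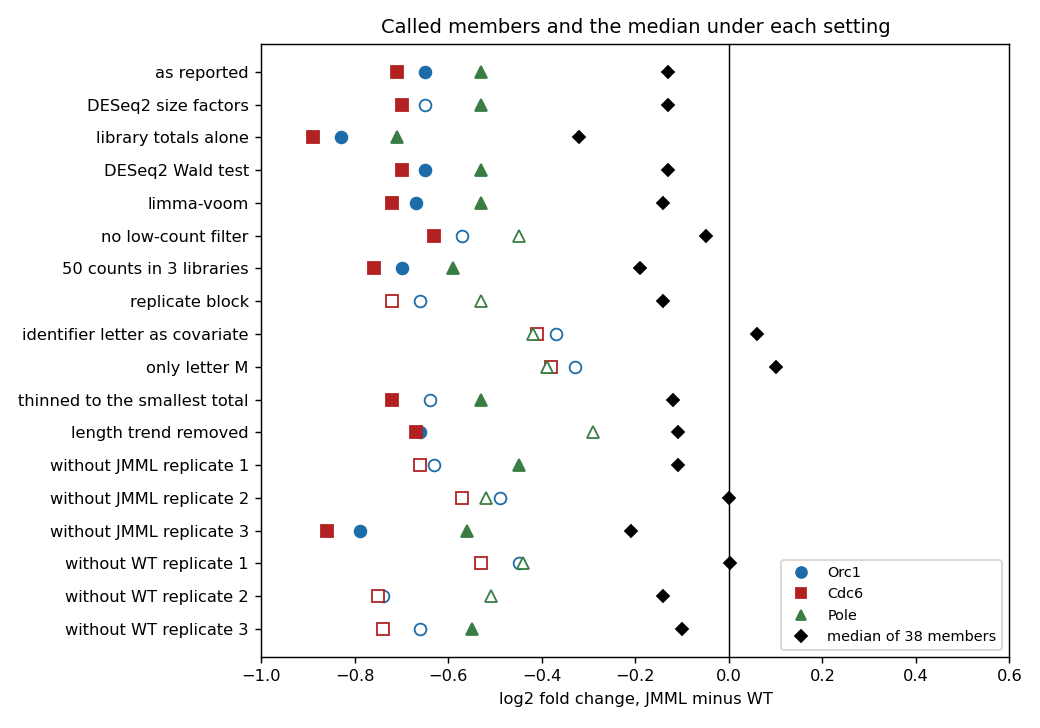
Log2 fold change (JMML minus WT, horizontal axis) of Orc1, Cdc6 and Pole and the median of the 38 replication genes (black) as reported and under each of 17 other settings (rows); filled coloured marks passed the adjusted p threshold of 0.05 in that setting. The 3 genes lie below 0 in every row, and the median reaches 0.10 within the letter M and −0.32 with library totals alone.

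The wider replication pathway was read from 73 other genes in 6 lists. Of these edgeR called 5 higher (6.85%) and 10 lower (13.7%), beside 12.4% and 13.8% of all tested genes, with a median log2 fold change of −0.10. The counts were 1 higher and 15 lower with library totals alone, and 0 and 1 with the identifier letter in the fit. With a trend on gene length removed they were 3 higher and 4 lower. Among 15 further licensing and origin firing genes 2 rose and 4 fell. Gmnn, whose product geminin blocks relicensing by binding Cdt1, rose from 45.1 ± 2.92 CPM in WT to 58.3 ± 1.76 CPM in JMML (log2 fold change 0.37 ± 0.10, edgeR adjusted p = 0.0366). Mcmbp, which binds Mcm proteins outside the ring, rose from 147 ± 7.12 to 205 ± 33.7 CPM (0.48 ± 0.14, edgeR adjusted p = 0.0439). Ticrr (−0.59 ± 0.12) and Recql4 (−0.59 ± 0.18), which act in origin firing, and Wdhd1 (−0.47 ± 0.12), which ties polymerase alpha to the fork, fell. Mcm9, a helicase of DNA repair related to the ring genes, fell as well (−0.39 ± 0.12). The edgeR adjusted p of these 4 ran from 0.015 to 0.0483. With the length trend removed, Mcmbp kept its call (0.52, edgeR adjusted p = 0.0304). Gmnn (0.22, 0.151), Ticrr (−0.38, 0.0553), Recql4 (−0.57, 0.0513), Wdhd1 (−0.35, 0.0821) and Mcm9 (−0.20, 0.212) lost theirs.

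The other lists held fewer calls. Among 6 further polymerase subunits, Pold4, the small subunit of polymerase delta, rose (1.05 ± 0.27 on the log2 scale) and Pole3, a histone-fold subunit of polymerase epsilon, fell (−0.36 ± 0.11). Of 4 alternative clamp loader genes Atad5, which unloads PCNA, fell (−0.56 ± 0.13). Among 11 strand and fork genes Dna2, a flap nuclease, rose (0.44 ± 0.13). Of 20 further nucleotide genes Dctpp1, which clears damaged dCTP, rose (0.53 ± 0.15) and Dctd, which turns dCMP into dUMP, fell (−0.84 ± 0.22). In all 6 of these genes the groups did not overlap, but they are named because they were called, which makes that likely. Over all tested genes, JMML lay wholly below WT in 24.6% and wholly above in 22.9%. With the length trend removed, Pole3, Dna2 and Dctd kept their edgeR calls. Pold4 (0.86, edgeR adjusted p = 0.0554), Atad5 (−0.43, 0.0598) and Dctpp1 (0.33, 0.134) lost theirs.

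Of 17 E2F factors and S-phase kinases 3 fell by edgeR's test (17.6%, beside 13.8% of all tested genes). Rb1, the retinoblastoma protein that restrains E2F, measured 94.6, 75.1 and 87.8 CPM in JMML and 139, 147 and 138 CPM in WT, well apart. Its log2 fold change was −0.72 ± 0.11, with an edgeR adjusted p of 0.00658. E2f4, a mostly repressive E2F, fell by 0.58 on the log2 scale. Tfdp2, a binding partner of E2F factors, measured 50.3, 39.7 and 12.2 CPM in JMML and 92.5, 94.1 and 91.4 CPM in WT, with JMML 3 lowest. Rb1 kept its edgeR call without any 1 of the 6 libraries, and under 16 of the 17 other settings. The other 14 called pathway genes were called in 5 to 12 of the 17.

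Genes of mitosis, the step after replication, gave a median of 0.11 over 25 genes, with 1 called higher (4%) and 2 lower (8%) by edgeR, beside 12.4% and 13.8% of all tested genes. With any 1 library left out, 0 of the 25 were called lower. In the mitosis genes too JMML 3 was the highest JMML library, in 21 of 25, while WT 1 was the highest WT library in 12. The shares among the 8029 genes above were 38.7% and 43.2%. Mki67, the proliferation marker present through the cycle, fell from 2494, 2648 and 2632 CPM in WT to 1873, 1900.4 and 1905 CPM in JMML (log2 fold change −0.45 ± 0.13, edgeR adjusted p = 0.0377). That call was lost without any 1 of the 6 libraries, while the log2 fold change stayed between −0.44 and −0.40. Mki67 has 10061 exon bases, and with the length trend removed its log2 fold change was −0.24 (edgeR adjusted p = 0.193). Over all other settings tried it ran from −0.64 to −0.24. Top2a, the topoisomerase that untangles copied chromosomes, measured 1193, 1074 and 1500.1 CPM in JMML and 1248, 1182 and 1318 CPM in WT, with no call (0.0071 ± 0.16). The difference between the replication and mitosis medians was not tested.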

How the data were processed

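Total RNA was sequenced with the TruSeq Stranded Total RNA Gold kit, per the labels' protocols, from 3 JMML and 3 WT mouse libraries, grouped by genotype label. The deposited files hold whole-number read counts per Ensembl gene, 1 file per library. The submitters' processing notes list, without saying what each did, DESeq2 1.22.2 in R 3.5.0, the aligner STAR 2.5.3a, the transcript assembler StringTie 1.3.3b, Picard 2.0.1, bcl2fastq 2.18.0.12 and the build GRCm38. Which tool counted, its strand setting and its handling of mates: not given in the sources used here. Symbols, coordinates and exon lengths came from GENCODE vM21 (45229 of 46078 identifiers matched, and the 849 others held 0.142% to 0.167% of counts).

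Genes were kept with edgeR's filterByExpr (18097), scaled by TMM and tested with glmQLFTest in edgeR 4.0.16 (R 4.3.3) on group alone. P-values were adjusted by Benjamini-Hochberg over all tested genes. The SE is the size of the log2 fold change over the square root of F, and 95% intervals use the moderated degrees of freedom. The biological coefficient of variation was 29.4%. CPM per kb divides CPM by union exon length. The analysis was tested on simulated data. Every pair of libraries differed by more than sampling noise, with a chi-square of at least 101 for each degree of freedom.

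All 38 members are named whatever their values. Of 6 other pathway lists the called genes are named, up to 4 increases and 4 decreases a list, and of the mitosis list only Mki67 and Top2a. Marker genes at 0 counts in a library are also named, chosen after their values were seen. Members, lists and motifs were chosen with earlier results of these data known. Alternatives, 17 in all, were DESeq2 1.42.0 size factors and Wald test, library totals, limma-voom (limma 3.58.1), no filter, at least 50 counts in 3 libraries, a replicate block, the identifier letter as covariate, the letter M alone, thinning to 47096464 counts, removal of a length trend (loess span 0.5), and each library left out. For non-members they were added after seeing the data. Normalized levels from Python 3.11.15 with pandas 2.3.3 were plotted in matplotlib 3.10.9.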

Additional observations from a re-analysis of the deposited data

How the results depend on the processing

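No replication gene was called higher in any of the 17 other settings. The counts lower, 3 as reported, were 7 with library totals alone, 1 when low counts were not filtered, and 0 with the replicate block, the identifier letter or the letter M alone. Leaving out single libraries gave 0 to 3. The median of the 38 genes was −0.32 with totals, 0.06 with the letter and 0.10 within M, and −0.21 to 0.003 on leaving out a library. The number of all genes called, 4737 as reported, was 2809 with the replicate block, 2219 with the letter, 2310 within M and 2203 to 4003 without 1 library. The number called higher, 2245 as reported, was 1280 with totals, 1358 with the block, 969 with the letter, 1012 within M and 1050 to 1955 without 1 library. The number called lower, 2492 as reported, was 3460 with totals, 1451 under the block, 1250 under the letter, 1298 within M and 1153 to 2048 without 1 library. Same-numbered libraries did not deviate together (correlations −0.20, 0.05 and −0.14). With so few libraries a group, these correlations cannot show whether the numbers pair libraries. Pairing is therefore not known, and the block is a setting only. The cause of these shifts was not tested.

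The 38 genes under 17 settings gave 646 values. Of these 512 kept direction and side of the threshold, 27 lost a call, 5 gained one and 102 changed sign. None of the 102 was a call. Their log2 values were, with totals, Orc6 −0.18, Mcm5 −0.037, Gins1 −0.10, Gins2 −0.18, Gins4 −0.0038, Pcna −0.18, Rfc3 −0.014, Rfc4 −0.18 and Rpa1 −0.082. With limma-voom they were Orc6 −0.0096, Gins2 −0.0058, Pcna −0.0041 and Rfc4 −0.0079. Without the filter they were Mcm3 0.051, Gins3 0.0079, Prim2 0.00021, Rfc1 0.066, Rfc5 0.075, Rrm2 0.047 and Tk1 0.015. With 50 counts in 3 libraries they were Orc6 −0.042, Gins2 −0.055, Pcna −0.055 and Rfc4 −0.043. The block gave Orc6 −0.0022 and Pcna −0.0049, and thinning gave Gins2 −0.0027 and Rfc5 0.0094. With the letter they were Mcm3 0.26, Mcm6 0.061, Mcm10 0.10, Gins3 0.18, Pold1 0.019, Rfc1 0.15, Rfc2 0.16, Rfc5 0.22, Rpa2 0.031, Fen1 0.47, Rrm1 0.077, Rrm2 0.30, Tyms 0.059 and Dut 0.087. Within M they were Mcm3 0.29, Mcm6 0.10, Mcm7 0.032, Mcm10 0.14, Gins3 0.22, Prim2 0.035, Pold1 0.055, Rfc1 0.19, Rfc2 0.19, Rfc5 0.26, Rpa2 0.066, Fen1 0.51, Rrm1 0.11, Rrm2 0.34, Tyms 0.10 and Dut 0.12. With the length trend removed they were Orc6 −0.043, Gins1 −0.067, Pcna −0.06, Rfc1 0.047, Rfc4 −0.13, Rfc5 0.019 and Rrm1 0.13.

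Leaving out single libraries gave ranges across 0 for Orc6 (−0.10 to 0.19), Mcm3 (−0.18 to 0.17), Gins2 (−0.082 to 0.16), Gins3 (−0.20 to 0.051), Prim2 (−0.13 to 0.038), Pcna (−0.087 to 0.14), Rfc1 (−0.088 to 0.042), Rfc2 (−0.32 to 0.024), Rfc4 (−0.14 to 0.18), Rfc5 (−0.12 to 0.12), Rpa1 (−0.0051 to 0.24), Rpa2 (−0.19 to 0.12), Fen1 (−0.63 to 0.082), Rrm1 (−0.19 to 0.0075), Rrm2 (−0.22 to 0.16), Tk1 (−0.14 to 0.088) and Dut (−0.29 to 0.031). Top2a changed sign with totals (−0.18), limma-voom (−0.0046), 50 counts (−0.05) and the block (−0.0058), and ranged from −0.12 to 0.12 without 1 library. The 73 other pathway genes held 0 higher and 2 lower calls with the block.

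The smallest count of a replication gene was 984, so the spread over 3 libraries a group, more than read depth, sets the precision.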
